A study of Mus musculus with 18 samples.

Results

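Mast cells are granulated immune cells of the gut wall that carry receptors for immunoglobulin E. On activation they release proteases, histamine and lipid mediators stored in or made by the cell. In the mouse intestine the chymases encoded by Mcpt1 and Mcpt2 are known as products of mucosal mast cells, those that sit among epithelial cells, whereas Mcpt4, Cma1, Tpsb2 and Cpa3 are best known from connective tissue mast cells. Intestinal adenomas of mice with a mutant Apc gene are known to hold mast cells.

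The tumours that expressed mast cell genes most strongly are set here against those that expressed them least, among 15 of the 18 intestinal tumours of the series. All 18 came from male C57BL/6 mice with the ApcMin/+ genotype, that is, 1 truncating allele of a negative regulator of Wnt signalling, and the labels give no treatment. The mice differed in Macrod2, the gene of an enzyme that takes ADP-ribose marks off proteins. They carried Macrod2-/- (hom), Macrod2-/+ (het) or Macrod2+/+ (wt). The labels number the mice within each genotype and give 1 bulk tumour RNA library per mouse, so p-values measure the spread between these tumours. The mast cell score of a tumour was the mean of log2(RPKM + 0.1) over Mcpt1, Mcpt2 and Ms4a2, where RPKM is reads per kilobase of gene, scaled to library size, and Ms4a2 encodes the beta chain of the high-affinity receptor for immunoglobulin E. The ranking left out wt 1, wt 2 and the small intestinal tumour het 4, and the 15 tumours left were all labelled as large intestine. The sets were chosen by these measured levels: the 5 tumours of highest score were taken as mast-cell-rich and the 5 of lowest score as mast-cell-poor, with 5 in the middle.

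The 15 ranked tumours had Gata4, a transcription factor of the proximal gut, at 0.083 to 13.95 RPKM, whereas the 3 left out had 49.05 to 52.9 RPKM. The name distal adenomas has been used for such tumours, but the defining genes of the distal large intestine were near 0. Among the 15, Hoxd13 reached at most 0.151 RPKM, Hoxb13 at most 0.209 RPKM and Hoxa13 at most 0.0358 RPKM, while Hoxd12 had 0 reads. The ileal gene Fabp6 ran from 22.05 to 3262 RPKM in these tumours. Car1, a gene of colonic surface enterocytes, had a median of 0.122 RPKM in them and reached at most 5.28 RPKM. The small intestinal gene Apoa4 ran from 7.93 to 4101 RPKM. They are called here the Gata4-low tumours. Large intestine is their label only, and their site was not tested. The epithelial gene Epcam, at 1191 to 1779 RPKM, and the intestinal transcription factor gene Cdx2, at 33.9 to 72.25 RPKM, were present in all 15. Total counts ran from 13529204 to 20857918 over the 18 libraries. The library of wt 3, a mast-cell-rich tumour, stood apart because the ribosomal RNA precursor Rn45s took 27.0% of its counts, against 0.725% or less in each other library.

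The score ran from 1.03 in hom 6 to 6.68 in het 3 on the log2 scale. The rich tumours were het 3 with 6.68, wt 3 with 6.11, wt 5 with 5.39, het 6 with 4.67 and wt 4 with 4.55. The poor tumours were het 5 with 2.19, het 1 with 1.83, hom 5 with 1.82, wt 6 with 1.52 and hom 6 with 1.03. Just outside the rich set stood hom 1 with 4.06, and just outside the poor set hom 2 with 2.37. The scores formed a gradient with no wide gap at either border, and because they chose the sets they carry no test. Mcpt1 had 844, 512, 315, 183 and 219 RPKM in the rich tumours in the order just given, against 20.3, 14.6, 14.8, 12.1 and 7.99 RPKM in the poor ones in their order. Ms4a2 was a scarcer transcript, with 2.05, 1.72, 0.854, 0.568 and 0.259 RPKM in the rich tumours and 0.146, 0.107, 0.0899, 0.0400 and 0.0181 RPKM in the poor ones. In bulk tumours, more mast cells and more RNA of these genes per mast cell cannot be told apart.

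**Figure D1:**
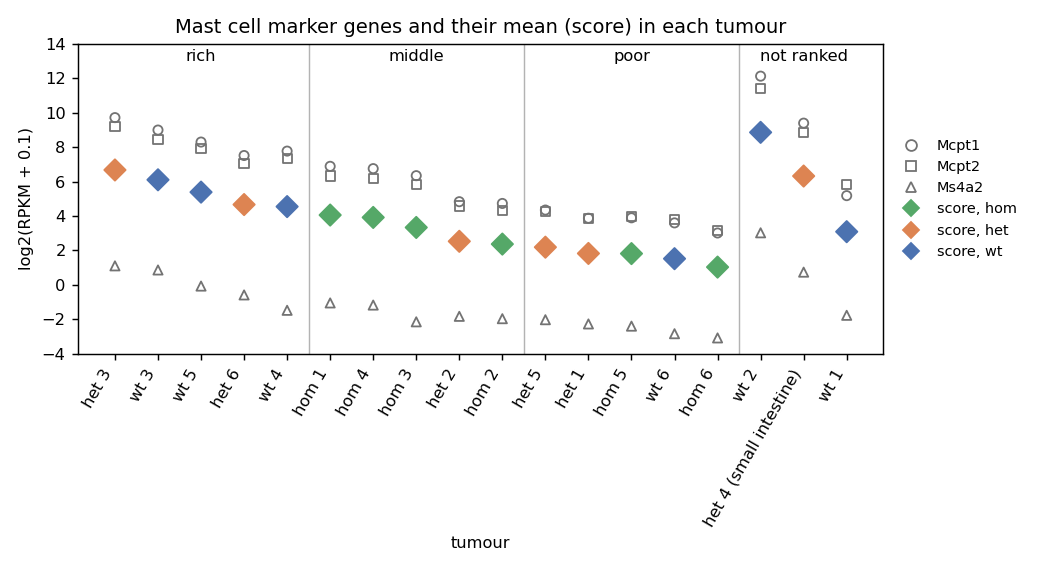
Expression of the 3 score genes (grey symbols) and their mean, the mast cell score (coloured diamonds), as log2(RPKM + 0.1) in each of 18 tumours, which run from the rich set through the middle set to the poor set, with 3 tumours outside the ranking at the right. Green, orange and blue diamonds are hom, het and wt tumours, and no green diamond lies among the 5 rich tumours.

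The rich set held 0 hom, 2 het and 3 wt tumours, the middle set 4 hom, 1 het and 0 wt, and the poor set 2 hom, 2 het and 1 wt. The 6 hom tumours scored 1.03 to 4.06 with a median of 2.85, the 5 het tumours 1.83 to 6.68 with a median of 2.53, and the 4 wt tumours 1.52 to 6.11 with a median of 4.97. Each genotype overlapped the others, and het and wt tumours stood at both ends. Mast cell genes were compared by genotype in these 15 tumours with edgeR's quasi-likelihood test on the deposited counts, a comparison that does not use the score. In hom against wt, 0 of 23 mast cell genes tested passed an adjusted p of 0.05, where 0.00714% of 14012 genes passed, namely Macrod2 alone. Mcpt1 had a log2 fold change of -2.15 in hom against wt (SE 1.12, edgeR adjusted p = 0.237), Mcpt2 one of -2.20 (SE 1.02, edgeR adjusted p = 0.198) and Ms4a2 one of -1.89 (SE 0.95, edgeR adjusted p = 0.222). The estimate was negative for 19 of the 23, with a median of -1.23 against 0.01 over all genes. Of the 23, 6 had an unadjusted p under 0.05, against 24.8% of all genes, and DESeq2 called 0. In hom against het 0 of 23 passed, with 1 at an unadjusted p under 0.05, and in het against wt 0 of 23 passed, with 0 at that level (edgeR), where 0.00714% and 0% of all genes passed, and DESeq2 again called 0 in each. Without wt 3 the count in hom against wt was 1, the serotonin transporter gene Slc6a4, higher in hom tumours by 4.04 on the log2 scale (SE 0.80, edgeR adjusted p = 0.0340).

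The rich and poor tumours were then compared across all genes other than the 3 of the score, with the middle tumours in the fit. With edgeR, 20 of 14009 genes passed an adjusted p of 0.05, which is 0.143%. Of these, 11 were higher in the rich tumours (0.0785%) and 9 were lower (0.0642%). Across all genes the median log2 fold change was 0.00, and 49.8% of estimates were positive. An unadjusted p under 0.05 was found for 2625 genes, 1551 of them higher (11.1% of all genes) and 1074 lower (7.67%). In each of the 20 called genes the mean log2 CPM of the middle tumours lay between those of the rich and poor tumours, though by mean RPKM Mcpt8, at 0.209 in the middle and 0.218 in the poor set, was an exception. Sets without overlap were found for 0.714% of genes in the higher direction and 1.33% in the lower one. The counts depend on the test, the model and the tumours that enter. DESeq2 called 270 genes, edgeR without wt 3 called 13 higher and 17 lower, a fit with Macrod2 genotype as a term called 7, and without the 6 hom tumours, where the poor set keeps 3 tumours, edgeR called 0 (smallest adjusted p 0.252).

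**Figure D2:**
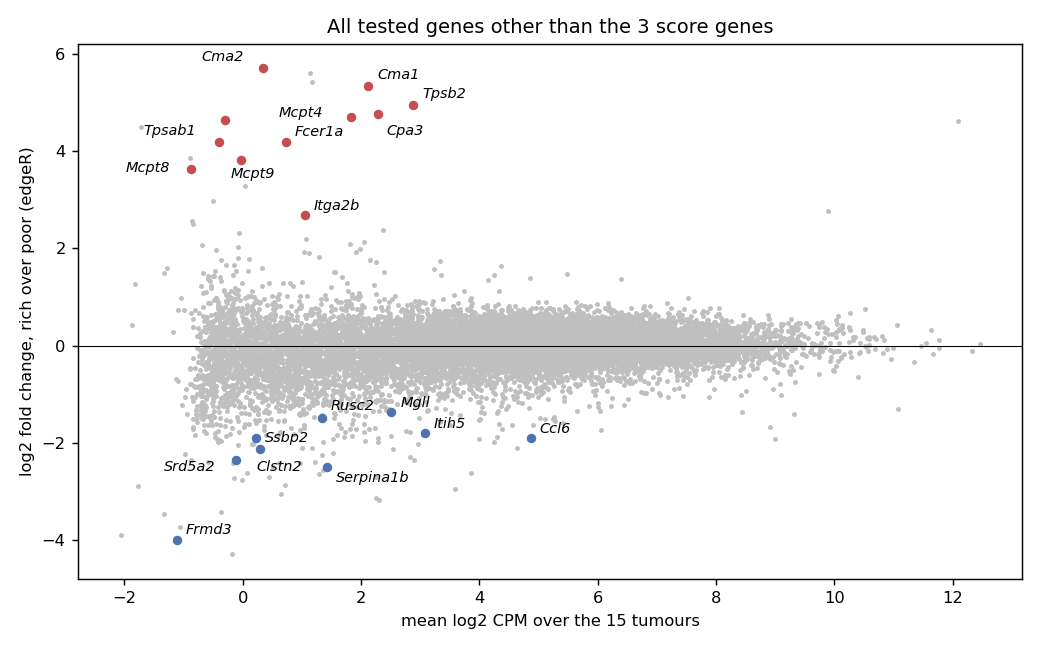
Log2 fold change of the rich over the poor tumours (edgeR, vertical axis) against mean log2 CPM over 15 tumours (horizontal axis, CPM being counts scaled to library size) for 14009 genes. Red points are the 11 genes past an adjusted p of 0.05 that were higher and blue points the 9 that were lower. The red genes lie at log2 fold changes of 2.68 to 5.70 and low to moderate expression.

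Of the 11 higher genes, 8 encode proteases or receptors of mast cells, led by Cma2, Cma1 and Tpsb2. They mark the same cells as the score, so they are given as a description and support nothing further. Cma1, an alpha-chymase of connective tissue mast cells, had 57.7, 36.7, 22.8, 11.1 and 16.7 RPKM in the rich tumours, against 1.34, 0.281, 1.03, 0.524 and 0.379 RPKM in the poor ones. Its log2 fold change was 5.34 (SE 0.64), and the lowest rich tumour, het 6, lay far above the highest poor tumour, het 5. Tpsb2, a beta-tryptase, averaged 39.3 ± 24.2 RPKM in rich and 1.28 ± 0.704 RPKM in poor tumours (SD, n = 5 each), and its log2 fold change was 4.94 (SE 0.59). Cpa3, the mast cell carboxypeptidase A, had 42.2, 27.7, 15.5, 7.66 and 6.73 RPKM in the rich tumours and 0.814, 0.659, 1.53, 0.465 and 0.176 RPKM in the poor ones (log2 fold change 4.76, SE 0.65). No poor tumour reached the lowest rich one in these 3 genes. Fcer1a, the alpha chain that binds immunoglobulin E, had 14.9, 9.28, 5.43, 2.67 and 3.06 RPKM in the rich tumours and 0.401, 0.442, 0.740, 0.220 and 0.0995 RPKM in the poor ones. As for the beta chain gene Ms4a2, het 3 was highest and hom 6 lowest of the 10 tumours, and the sets did not overlap. Mcpt4, Cma2, Mcpt9 and the tryptase gene Tpsab1 had log2 fold changes of 4.69, 5.70, 3.82 and 4.18.

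**Figure D3:**
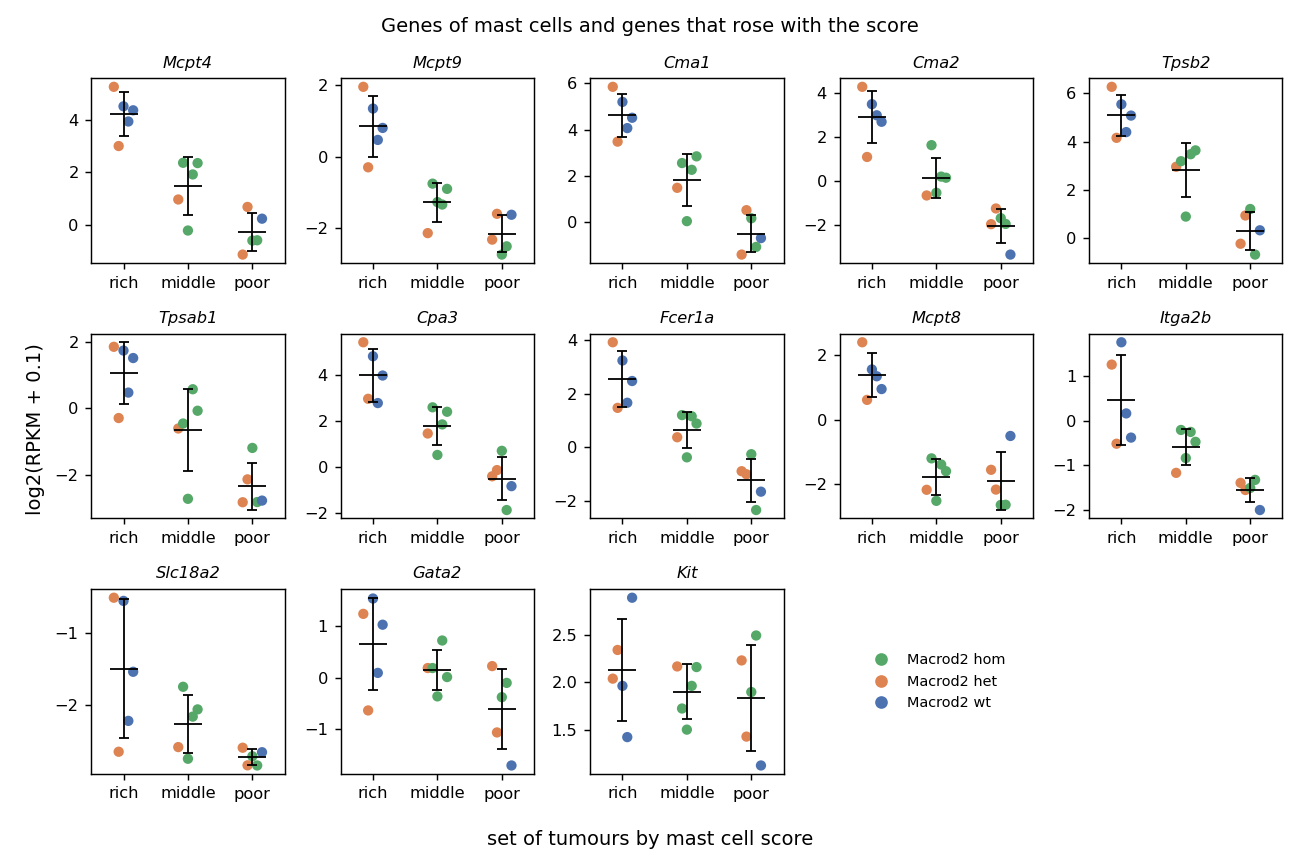
Log2(RPKM + 0.1) of 13 genes in the 5 rich, 5 middle and 5 poor tumours, coloured by Macrod2 genotype, with the mean and SD of each set as black lines. The first 8 panels are the called mast cell genes, followed by Mcpt8 and Itga2b, which also passed, and by Slc18a2, Gata2 and Kit, which did not. Kit spans 2.59 to 7.29 RPKM in rich and 2.09 to 5.52 RPKM in poor tumours.

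The levels of connective tissue type proteases relative to Mcpt1 overlapped between the sets. Per length, Mcpt4 stood at 4.34% to 7.01% of Mcpt1 in rich and 2.45% to 8.97% in poor tumours. Tpsb2 stood at 9.13% to 10.7% of Mcpt1 in rich and 5.09% to 14.8% in poor tumours. The ratio of Mcpt1 to Mcpt2 was 1.28 to 1.46 in the rich tumours and 0.869 to 1.07 in the poor ones, so the sets did not overlap. Both are score genes, and this ratio was not tested. The spliced transcripts of Mcpt1 and Mcpt2 are 78.7% identical over 1020 aligned bases, and their longest shared run is 49 bases. Mcpt1 and Mcpt4 are 82.5% identical, with a longest shared run of 46 bases. The sources used here give no read length, so how reads that match more than 1 chymase gene were counted is uncertain.

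The chymase genes lie in 1 cluster on chromosome 14 of mm10, 321 kb from the start of Cma1 at 55941451 to the end of the granzyme gene Gzmb at 56262260. Among its 18 genes, Cma1, Cma2, Mcpt1, Mcpt9, Mcpt2, Mcpt4 and Mcpt8 occupy the Cma1 side. The granzyme genes, whose products are proteases of cytotoxic lymphocytes, occupy the other. Gzmb had 0.619 to 10.2 RPKM in the rich tumours, with a median of 2.20, and 0.716 to 2.63 RPKM in the poor ones, with a median of 1.79 (log2 fold change 1.29, edgeR adjusted p = 0.268). Gzmc had 21 counts in the rich tumours and 22 in the poor ones, and Gzme had 27 and 38. The predicted gene Gm5801, inside the chymase side of the cluster, had 12.7 to 16.3 RPKM in rich and 13.2 to 15.4 RPKM in poor tumours.

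Mast cell genes are known targets of GATA2, a transcription factor that binds sequences with the core GATA. The promoters of 4 genes with large differences, each picked because it holds the motif, are shown to let it be read in place. They are the 250 bases before the RefSeq start (GRCm38.p6, the same assembly as mm10), 5′ to 3′ on the gene's strand, and capitals mark the letters AGATAA or TGATAA on either strand. The windows are chr14:56017714-56017963 on the + strand for Mcpt1, chr14:56062311-56062560 on the - strand for Mcpt4, chr3:20242182-20242431 on the - strand for Cpa3 and chr19:11623720-11623969 on the - strand for Ms4a2.
Mcpt1: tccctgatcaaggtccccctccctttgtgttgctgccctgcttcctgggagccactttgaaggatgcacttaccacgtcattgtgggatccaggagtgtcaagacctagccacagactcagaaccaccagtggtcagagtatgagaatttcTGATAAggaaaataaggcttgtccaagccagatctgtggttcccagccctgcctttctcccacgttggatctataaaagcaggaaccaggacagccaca
Mcpt4: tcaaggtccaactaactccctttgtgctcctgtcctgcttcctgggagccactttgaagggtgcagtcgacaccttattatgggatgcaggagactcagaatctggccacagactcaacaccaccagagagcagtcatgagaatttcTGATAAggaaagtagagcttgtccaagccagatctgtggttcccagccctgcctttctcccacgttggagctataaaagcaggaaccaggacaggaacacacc
Cpa3: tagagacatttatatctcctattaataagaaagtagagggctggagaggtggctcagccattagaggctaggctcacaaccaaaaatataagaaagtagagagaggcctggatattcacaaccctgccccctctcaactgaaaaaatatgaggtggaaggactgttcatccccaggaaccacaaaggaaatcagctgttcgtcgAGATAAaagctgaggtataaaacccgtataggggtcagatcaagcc
Ms4a2: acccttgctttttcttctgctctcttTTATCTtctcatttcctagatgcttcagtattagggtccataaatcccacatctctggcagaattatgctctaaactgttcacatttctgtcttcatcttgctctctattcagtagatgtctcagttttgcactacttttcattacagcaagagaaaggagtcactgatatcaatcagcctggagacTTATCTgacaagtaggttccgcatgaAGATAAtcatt
The Mcpt1 and Mcpt4 promoters are 85.7% identical over 244 aligned bases and share the sequence around the motif. The match starts 99 bases before the gene start in Mcpt1, 103 bases before it in Mcpt4 and 46 bases before it in Cpa3, and Ms4a2 has 3 matches. Of the score genes and genes called higher, 9 had a promoter in the RefSeq table and 5 of these held the letters. The fifth was Fcer1a, while Mcpt9 and Cma1 had none, although Cma1 had a log2 fold change of 5.34. Over all 32851 promoters of the same length, 16.6% held them, and of 20 mast cell genes with a promoter 8 did. The 9 include score genes and the similar Mcpt1 and Mcpt4 promoters, so these shares are a description only. Binding of GATA2 was not tested. Gata2 itself had 2.26, 2.80, 1.94, 0.545 and 0.968 RPKM in the rich tumours, against 0.380, 1.07, 0.671, 0.208 and 0.834 RPKM in the poor ones, and did not pass (log2 fold change 1.41, SE 0.46, edgeR adjusted p = 0.197).

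Of 25 mast cell genes in the table, 20 besides the score genes were tested, and 17 of them had a positive estimate, with a median log2 fold change of 1.21. Counts of the 2 receptor genes Mrgprb1 and Mrgprb2, of connective tissue mast cells, were too low to test. Mrgprb1 had 1 count in the rich tumours and 0 in the poor ones, and Mrgprb2 had 14 and 5. Kit, the receptor of stem cell factor, had 4.01, 3.80, 7.29, 4.96 and 2.59 RPKM in the rich tumours and 2.60, 4.59, 3.63, 2.09 and 5.52 RPKM in the poor ones (log2 fold change 0.28, SE 0.28, edgeR adjusted p = 0.557). The sets overlapped, from 2.59 to 5.52 RPKM. Il1rl1, the receptor of interleukin 33, had 9.79 to 16.7 RPKM in rich and 12.5 to 23.6 RPKM in poor tumours (log2 fold change -0.45, SE 0.32, edgeR adjusted p = 0.416). The prostaglandin D synthase gene Hpgds, the proteoglycan gene Srgn, the tetraspanin gene Cd63, the Rab GTPase gene Rab27b, Gpr35 and the leukotriene C4 synthase gene Ltc4s did not pass either. Their log2 fold changes ran from -0.39 in Rab27b to 0.58 in Hpgds. Other cells of the gut also express Kit, Il1rl1, Srgn, Cd63 and Rab27b.

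The genes for making and storing biogenic amines had higher means in the rich tumours but did not pass. Slc18a2, the vesicular monoamine transporter, had 0.599, 0.578, 0.244, 0.0600 and 0.115 RPKM in the rich tumours, against 0.0405, 0.0663, 0.0532, 0.0593 and 0.0403 RPKM in the poor ones (log2 fold change 2.57, SE 0.60, edgeR adjusted p = 0.131). Hdc, the histidine decarboxylase that makes histamine, averaged 0.621 ± 0.184 RPKM in rich and 0.305 ± 0.108 RPKM in poor tumours (SD, n = 5 each, log2 fold change 1.01, SE 0.42, edgeR adjusted p = 0.226). Tph1, the rate-limiting enzyme of serotonin synthesis outside neurons, had 3.80, 2.68, 1.41, 1.30 and 1.15 RPKM in the rich tumours and 0.551, 0.382, 0.809, 0.533 and 0.773 RPKM in the poor ones. Those sets did not overlap, yet the gene did not pass (log2 fold change 1.76, SE 0.43, edgeR adjusted p = 0.156). Enterochromaffin cells of the epithelium also make serotonin, and Slc6a4, the serotonin transporter, ran from 0.0532 to 8.25 RPKM in rich and from 0.636 to 12.8 RPKM in poor tumours. Alox5, the 5-lipoxygenase of leukotriene synthesis, differed by 1.89 on the log2 scale (SE 0.53, edgeR adjusted p = 0.173), and Alox5ap, its activating protein, one of 0.86 (edgeR adjusted p = 0.183). When the score entered as a continuous term over the 15 tumours, Slc18a2, Tph1 and Alox5 passed, with edgeR adjusted p of 4.80e-04, 0.00418 and 0.00686. Over all alternatives their highest adjusted p (edgeR without the hom tumours) was 0.814, 0.625 and 0.814. Of the 19 tested genes of histamine, eicosanoid and proteoglycan handling 0 passed between the sets, where 0.143% of all genes did. A positive estimate was found for 6, and the median was -0.20.

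Of the 3 higher genes that are not on the mast cell list, Mcpt8 and Itga2b are on that for basophils. Basophils are blood granulocytes that share the immunoglobulin E receptor with mast cells. Of the 3 tested genes on the basophil list 2 were thus called higher, where 0.0785% of all genes were. Mcpt8, a protease known from mouse basophils, had 5.17, 2.84, 1.83, 1.43 and 2.44 RPKM in the rich tumours, against 0.123, 0.241, 0.0604, 0.605 and 0.0609 RPKM in the poor ones. It rose in the rich tumours by 3.63 on the log2 scale (SE 0.56, edgeR adjusted p = 0.0159), from 181 counts in all in the rich and 17 in the poor set. The middle tumours, at 0.0751 to 0.336 RPKM, were as low as the poor ones. Itga2b, an integrin chain of platelets and of mast cell and basophil precursors, had 2.30, 3.30, 0.668, 0.598 and 1.02 RPKM in the rich tumours and 0.239, 0.279, 0.250, 0.148 and 0.297 RPKM in the poor ones. Its log2 fold change was 2.68 (SE 0.47, edgeR adjusted p = 0.0369). With genotype as a term neither Mcpt8 nor Itga2b passed (edgeR adjusted p = 0.138 and 0.185). Of 25 alternatives, Mcpt8 missed the threshold in 6 and Itga2b in 13. Tested platelet genes, chosen after Itga2b had been seen, did not pass. The platelet gene Gp9, below the filter on low counts, had 48 counts in the rich and 27 in the poor set. Its RPKM were 0.281 to 2.37 in rich and 0.127 to 0.556 in poor tumours. The part of platelets in the Itga2b values was not tested. Pf4, platelet factor 4, had 1.49 to 9.19 RPKM in rich and 2.36 to 5.56 RPKM in poor tumours (log2 fold change 0.02, edgeR adjusted p = 0.985), and the estimates of Gp1bb and Itgb3 were -0.52 and -0.77. Of the 8 genes on the basophil list, the other tested one did not pass. Its members Prss34, with 4 counts in the rich and 0 in the poor set, and Cd200r3, with 81 and 16, were below the filter. Which cells held the Cd200r3 RNA was not tested. The summed level of the list was 4.18 to 11.4 RPKM in rich and 1.47 to 4.62 RPKM in poor tumours, and the part of basophils in the immunoglobulin E receptor values was not tested.

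Type 2 cytokines are known growth and activating factors of mucosal mast cells, and their genes were scarce here. They were below the filter and were named after their counts were seen. Il9, whose product drives mucosal mast cell growth in mice, had 9, 2, 2, 1 and 1 counts in the rich tumours and 0 in each of the poor ones. Its summed level in the rich set was 5.72 times a floor of 3 counts over the poor set, equal to 0.0325 CPM. Of the 15 counts 9 came from het 3, and without it the level was 2.99 times the floor. Il13 had 10, 6, 4, 0 and 5 counts in the rich tumours and 0 in each poor one. That was 9.54 times the floor, and 7.48 times without het 3. Il4 had 1, 0, 2, 1 and 3 counts in the rich tumours and 0 in each poor one. That was 2.67 times the floor, and 1.83 times without wt 4. These values take the rich counts as exact, so they are not lower bounds of the fold change. With no filter on low counts none of the 3 passed (edgeR adjusted p = 0.173 for Il9, 0.173 for Il13 and 0.229 for Il4), and 7 to 25 counts over the rich set limit what can be said. Il5 had 0 counts in the rich set and 1 in the poor set, and Il3 had 0 in both.

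The more abundant growth and homing factors did not pass. Kitl, which encodes stem cell factor, had 23.1 to 51.5 RPKM in rich and 27.5 to 46.3 RPKM in poor tumours, with a log2 fold change of -0.02 (edgeR adjusted p = 0.963). Il33, an epithelial alarmin, had 45.7 to 84.5 RPKM in rich and 24.3 to 65.3 RPKM in poor tumours, with a log2 fold change of 0.57 (edgeR adjusted p = 0.278). Tgfb1, which induces Mcpt1 in cultured mouse mast cells, had 14.8, 14.5, 13.4, 14.3 and 14.1 RPKM in the rich tumours and 12.2, 10.2, 11.9, 12.4 and 11.7 RPKM in the poor ones. These sets did not overlap, but the log2 fold change was 0.27 (SE 0.11, edgeR adjusted p = 0.212). Itga4, an integrin chain by which mast cell precursors enter the gut, and its ligand gene Madcam1 had estimates of -1.65 and -1.48 (edgeR adjusted p = 0.189 and 0.204). In all, 22 of 31 growth, homing and priming genes were tested and 0 passed, where 0.143% of all genes did. Of the 22, 8 had a positive estimate and the median was -0.12.

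No tested gene of eosinophils, granulocytes that often accompany mast cells, passed in either direction, where 0.143% of all genes did. Their granule genes Epx, Prg2 and Prg3 had 0, 4 and 0 counts in the rich tumours and 3, 18 and 1 in the poor ones. The 5 eosinophil genes tested had a median of 0.19, and the summed level was 8.40 to 11.99 RPKM in rich and 4.77 to 10.9 RPKM in poor tumours. Tuft cell genes, markers of the chemosensory epithelial cells that release interleukin 25, had a positive estimate in 8 of 9, with a median of 0.18. Of these 0 passed, where 0.143% of all genes did.

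Of the 9 genes that fell in the rich tumours, 1 was an inhibitor of serine proteases. Serpina1b, an alpha-1-antitrypsin gene, had 1.17, 0.964, 0.652, 0.320 and 0.256 RPKM in the rich tumours, against 2.60, 4.46, 4.05, 5.30 and 2.69 RPKM in the poor ones. Its log2 fold change was -2.50 (SE 0.42, edgeR adjusted p = 0.0356). Serpina1b is 1 of several near-identical genes on chromosome 12, between which the counting could split reads, so its own level is uncertain. Serpina1e had the opposite sign (log2 fold change 0.84, edgeR adjusted p = 0.649), at 0 to 9.47 RPKM in rich and 0.164 to 2.94 RPKM in poor tumours. Serpina1a, Serpina1c and Serpina1d, below the filter, had 17, 26 and 17 counts in the rich set and 41, 46 and 54 in the poor set. Of 17 protease receptor and inhibitor genes tested, 0 were called higher and 1 lower, where 0.0642% of all genes were lower. Of the 17, 14 had a negative estimate, and the median was -0.46, or -0.241 with genotype as a term and -0.243 without the hom tumours. The summed level of this list was 1459 to 2744 RPKM in rich and 2035 to 2302 RPKM in poor tumours.

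Itih5, which encodes an inhibitor heavy chain that binds hyaluronan in the matrix, had 0.806, 0.947, 0.345, 0.381 and 0.414 RPKM in the rich tumours and 2.19, 2.57, 1.69, 1.95 and 1.63 RPKM in the poor ones. It fell by 1.80 on the log2 scale (SE 0.30, edgeR adjusted p = 0.0322). Ccl6, a chemokine of mouse myeloid cells, had 11.7, 9.57, 3.39, 9.22 and 11.2 RPKM in the rich tumours, against 15.9, 30.3, 38.4, 41.1 and 42.5 RPKM in the poor ones. Its log2 fold change was -1.91 (SE 0.34, edgeR adjusted p = 0.0373), and the rich value nearest to the poor set was that of het 3. Mgll, the lipase that degrades monoacylglycerols, averaged 0.717 ± 0.217 RPKM in rich and 1.85 ± 0.580 RPKM in poor tumours (SD, n = 5 each), and its log2 fold change was -1.37 (SE 0.25, edgeR adjusted p = 0.0491). Clstn2, a calsyntenin of synapses, Rusc2 and the DNA-binding protein gene Ssbp2 had log2 fold changes of -2.13, -1.48 and -1.90, at levels of 0.95 RPKM or less in each rich and poor tumour. Srd5a2, a steroid 5-alpha-reductase, and Frmd3, a FERM domain gene, were named after their values were seen. Srd5a2 had 0.781, 0.536, 0.128, 0.200 and 0.342 RPKM in the rich tumours and 1.93, 2.95, 1.96, 1.45 and 1.85 RPKM in the poor ones (log2 fold change -2.35, edgeR adjusted p = 0.0472). Frmd3 was at 0 in 3 rich tumours and at 0.0856 to 0.376 RPKM in the poor ones. With genotype as a term, Clstn2 was the one lower gene that passed (log2 fold change -2.62, edgeR adjusted p = 0.0369), and without wt 4, het 1 or hom 5 the count of lower genes was 0.

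**Figure D4:**
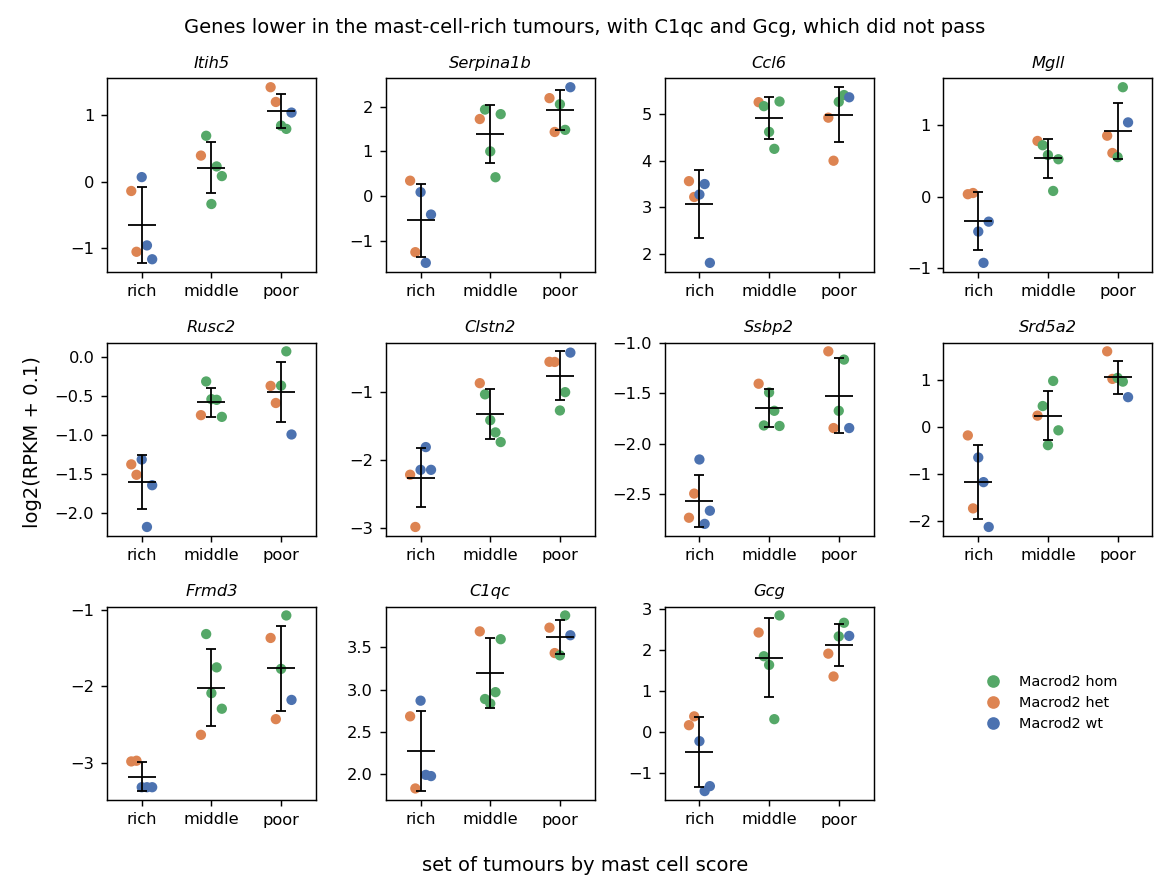
Log2(RPKM + 0.1) in the 5 rich, 5 middle and 5 poor tumours, coloured by Macrod2 genotype, of the 9 genes that were lower in the rich tumours and of C1qc and Gcg, which missed the threshold at an adjusted p of 0.0535 each (edgeR). Black lines are the mean and SD of each set. In the 11 panels the rich tumours lie below the poor ones without overlap.

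Genes of macrophages, dendritic cells, lymphocytes and stromal cells and of the interferon response were described by lists, and none of their members passed in either direction (edgeR), where 0.143% of all genes did. C1qc, a complement chain of macrophages, had 6.33, 7.21, 3.84, 3.46 and 3.88 RPKM in the rich tumours and 10.7, 13.2, 10.5, 12.4 and 14.6 RPKM in the poor ones. It missed the threshold (log2 fold change -1.32, SE 0.25, edgeR adjusted p = 0.0535). Of 19 macrophage and monocyte genes 18 had a negative estimate, with a median of -0.98, and 13 were lower at an unadjusted p under 0.05, against 7.67% of all genes. Their summed level was 70.7 to 102 RPKM in rich and 108 to 136 RPKM in poor tumours. Of 9 dendritic cell and MHC class II genes 8 had a negative estimate, with a median of -1.63. Het 1 held the highest H2-Aa level, 95.2 RPKM, while the rich tumours had 8.43 to 21.6 RPKM and overlapped the lowest poor tumour (log2 fold change -1.63, edgeR adjusted p = 0.167). Of 10 T and cytotoxic lymphocyte genes 8 had a negative estimate, with a median of -0.82. Interferon response genes had a negative estimate in 29 of 30, with a median of -1.04, and their summed level was 142 to 244.5 RPKM in rich and 156 to 520.4 RPKM in poor tumours.

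The matrix genes showed the same direction of estimate. Of 28 fibroblast and extracellular matrix genes 26 had a negative estimate, with a median of -0.79. At an unadjusted p under 0.05, 20 were lower, against 7.67% of all genes (edgeR). Col3a1, the chain of type III collagen, had 12.5, 22.8, 11.0, 14.9 and 14.9 RPKM in the rich tumours and 24.4, 29.2, 23.7, 23.5 and 39.6 RPKM in the poor ones, and did not pass (log2 fold change -0.89, SE 0.21, edgeR adjusted p = 0.141). Col6a3 did not pass either (log2 fold change -1.07, edgeR adjusted p = 0.128). Smooth muscle genes had a median of 0.15, and endothelial genes one of -0.51, which was -0.06 with genotype as a term and -0.04 without the hom tumours. The medians of the macrophage, MHC class II, interferon and matrix lists stayed negative under every alternative run.

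Genes of the cell cycle had the opposite sign. All 30 DNA replication genes and all 30 mitosis genes had a positive estimate, where 49.8% of all genes did, with medians of 0.54 and 0.58. At an unadjusted p under 0.05, 24 replication and 19 mitosis genes were higher, against 11.1% of all genes, and none passed after adjustment (edgeR). Bub3, of the spindle checkpoint, had 66.0, 56.6, 83.8, 82.6 and 82.5 RPKM in the rich tumours and 64.6, 52.8, 55.6, 63.8 and 44.3 RPKM in the poor ones (log2 fold change 0.39, edgeR adjusted p = 0.194). Ccne1, which encodes cyclin E1, averaged 16.1 ± 2.64 RPKM in rich and 10.65 ± 1.38 RPKM in poor tumours (SD, n = 5 each), without overlap (log2 fold change 0.59, edgeR adjusted p = 0.179). The summed mitosis genes stood at 818 to 1459 RPKM in rich and 554 to 963 RPKM in poor tumours. The 2 tumours of highest score, het 3 and wt 3, had lower Bub3, Ccne1 and Aurka levels than the other 3 rich tumours, so within the rich set these levels did not follow the score. Nuclear-encoded genes of oxidative phosphorylation had a positive estimate in 31 of 31, with a median of 0.26, and 3 were higher at an unadjusted p under 0.05, a smaller share than the 11.1% of all genes. That median was 0.15 with genotype as a term and 0.085 with the continuous score. The medians of the replication and mitosis lists were 0.49 and 0.50 with genotype as a term, and 0.52 and 0.49 without the hom tumours. Members of a list are measured in the same tumours and are not independent of each other.

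**Figure D5:**
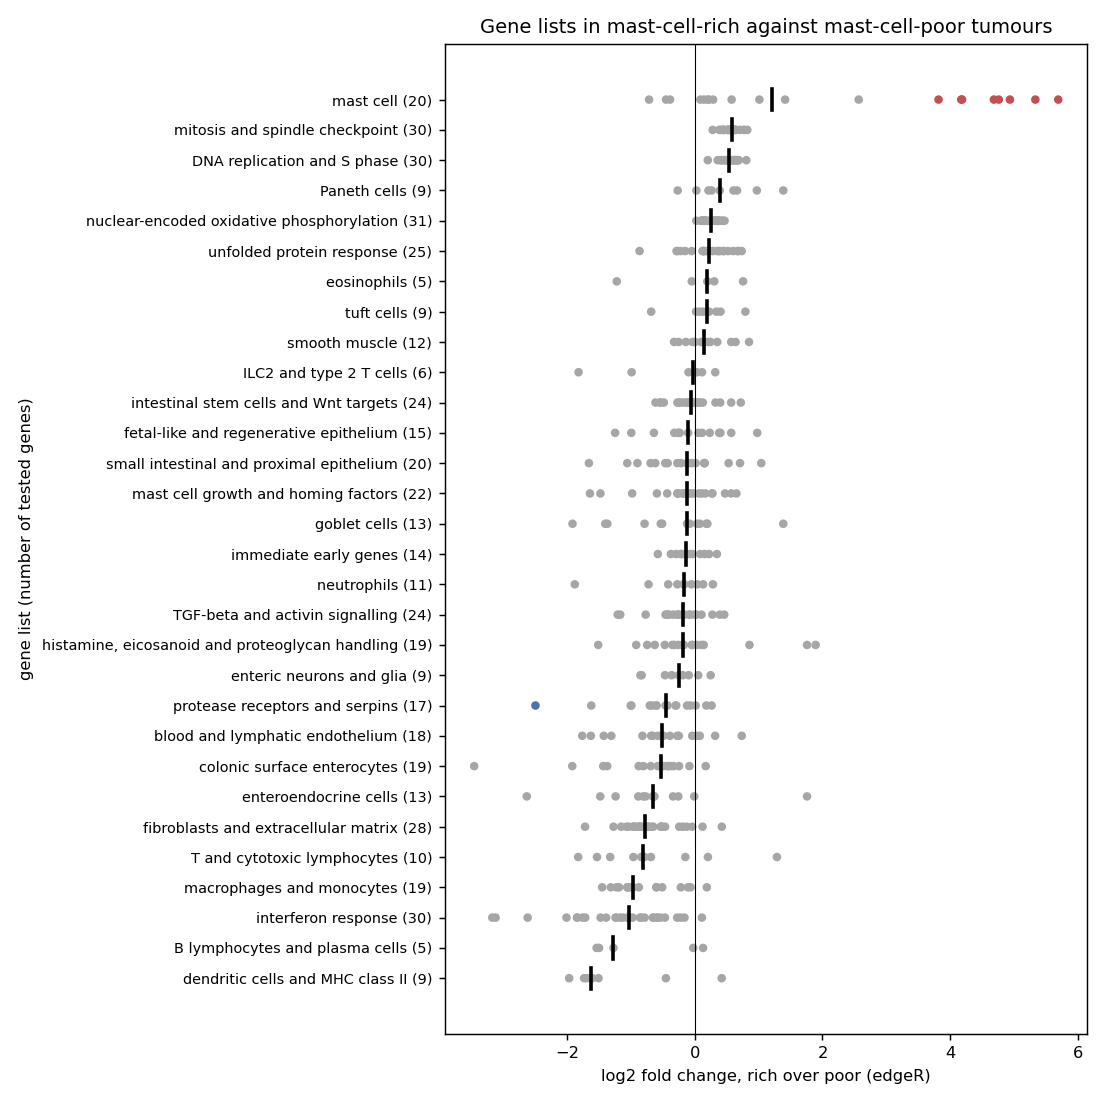
Log2 fold change of the rich over the poor tumours (edgeR, horizontal axis) for the tested members of 30 gene lists, 1 point per gene, with the list's median as a black bar and the number of tested genes in brackets. Red points passed an adjusted p of 0.05 as higher and blue ones as lower. The mast cell list reaches 5.70, whereas the cell cycle lists lie in a narrow band at medians of 0.54 and 0.58.

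Among epithelial genes, the enteroendocrine list held a gene close to the threshold. Gcg, the hormone precursor of L cells, had 1.02, 0.755, 0.300, 1.20 and 0.268 RPKM in the rich tumours, against 2.45, 3.65, 4.92, 4.96 and 6.22 RPKM in the poor ones. The sets did not overlap, but it missed the threshold (log2 fold change -2.64, SE 0.49, edgeR adjusted p = 0.0535). Of 13 enteroendocrine genes 12 had a negative estimate, the exception being Tph1, and the median was -0.66. Of 19 colonic surface enterocyte genes 18 had a negative estimate, with a median of -0.53, which was -0.324 with genotype as a term and -0.256 without the hom tumours. Of 13 goblet cell genes 8 had a negative and 5 a positive estimate, with a median of -0.12. Its members of smallest p included the mucus genes Tff3 and Fcgbp, with estimates of -1.37 and -1.41 (edgeR adjusted p = 0.167 each). The highest estimate in that list was 1.39, in Ang4. Paneth cell genes had a positive estimate in 8 of 9, with a median of 0.39, and stem cell and Wnt target genes had a median of -0.06. Lgr5, the receptor that marks intestinal stem cells, had 30.2 to 42.3 RPKM in rich and 39.8 to 66.8 RPKM in poor tumours (log2 fold change -0.49, edgeR adjusted p = 0.202). The regional gene Gata4 had a median of 8.37 RPKM in the rich and 0.776 RPKM in the poor set, and Fabp6 one of 170 and 1067 RPKM. The sets overlapped in both genes, and neither passed (edgeR adjusted p = 0.52 and 0.788). Whether the sets differed in gut position was not tested.

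For some of the called genes the differences are given within the genotypes that both sets share. With 1 wt and 2 het poor tumours no test was made. Between wt 3, wt 4 and wt 5 and the poor tumour wt 6, the mean difference of log2(RPKM + 0.1) was 5.28 for Cma1, 4.67 for Cpa3, 1.79 for Mcpt8, 2.53 for Itga2b, -1.72 for Itih5, -3.04 for Serpina1b and -2.51 for Ccl6. Between the rich tumours het 3 and het 6 and the poor tumours het 1 and het 5 it was 5.10, 4.44, 3.37, 1.85, -1.90, -2.26 and -1.07 for the same genes. The signs were fixed in advance, because these genes were called in the same tumours and their rich and poor values did not overlap. Only the sizes are a description, and the part of genotype was not tested. Macrod2 itself had a median of 0.639 RPKM in the rich and 0.320 RPKM in the poor set, with a log2 fold change of 0.84 that did not pass (edgeR adjusted p = 0.556).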

How the data were processed

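Libraries of 18 intestinal tumours were built with a stranded total RNA kit (TruSeq), per the labels, and held 13529204 to 20857918 counts. The deposited counts are whole-number reads per gene for 24062 genes, and the deposited RPKM are their values per gene length and scaled total. Trimmomatic, TopHat and, from Subread 1.4.5-p1, featureCounts are named in the submitters' processing notes, beside the build mm10. The strand setting of the counting is not given in the sources used here. In the files the RPKM equalled counts per length and total times a library factor of 0.921 to 1.28.

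The members, gene lists and tests were chosen with earlier results of these data known. Genes with a mean count of at least 10 over the 15 ranked tumours were tested with edgeR 4.0.16 in R 4.3.3 (TMM, robust quasi-likelihood fit, sets rich, middle and poor), with Benjamini-Hochberg adjustment over 14009 genes and a threshold of 0.05. Fold changes are log2, rich over poor. Named were up to 15 passing genes per direction of smallest p, without predicted genes or genes under a mean log2 CPM of 0, all mast cell genes, and of each other list up to 3 passing members or else up to 2 of smallest p. A fit with Macrod2 genotype as groups used the same 15 tumours. Alternatives included DESeq2 1.42.0, limma 3.58.1 with and without voom, other scalings and filters, a genotype term, a mouse number block, the score as a continuous term and each of the 10 rich and poor tumours left out, and for genotype each of the 15. The fit without the hom tumours and the levels of cytokine genes over the floor with 1 tumour left out were added after the data were seen. 1 gene called higher is not reported here. The scripts were tested on simulated counts. Gene positions are from GENCODE vM21 and promoters from RefSeq. The floor of 3 counts covers counting error in the poor set only, whereas intervals of fold changes include the spread between tumours.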

Additional observations from a re-analysis of the deposited data

Results flagged for a closer look

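In the rich set, Ccl6 was at 3.39 RPKM in wt 5, far below the other 4 rich tumours at 9.22 to 11.7 RPKM, and the poor tumours had 15.9 to 42.5 RPKM. Hdc was at 0.309 RPKM in het 6, apart from 0.611 to 0.761 RPKM in the other rich tumours. Ltc4s was at 4.06 RPKM in het 3, above the 1.87 to 2.33 RPKM of the others. Mrgprb1 was at 0.0136 RPKM in het 6, a single read, and at 0 in the other rich tumours. Of 73 sets of values examined for a distant sample 4 were flagged, and chance flags about 1 in 20 such sets.

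Outside the ranking, the score of wt 2 was 8.86, above each of the 15 ranked tumours, whose highest was het 3 with 6.68. Mcpt1 stood at 4485 RPKM in wt 2. This tumour has a Gata4 level of 52.9 RPKM, and it entered the genotype comparison only in an alternative with wt 1 and wt 2, where 0 mast cell genes were called.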

How the results depend on the processing

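Higher and lower counts held within 1.5 times of 11 and 9 under DESeq2 size factors, filterByExpr, limma-voom, Rn45s left out, and scores from log2(RPKM + 1) or CPM, which kept all 15 tumours in their sets. DESeq2 called 270 genes (98 higher, 172 lower), rich and poor tumours alone 5 (4 and 1), a genotype term 7 (6 and 1) and no hom tumours 0 (0 and 0, with 685 at an unadjusted p under 0.05). Lower genes numbered 16 with upper-quartile scaling, 15 with no filter, 15 with limma on log2(RPKM + 0.1) and 0 with the continuous score. Leaving out 1 tumour gave 7 to 30 genes, 7 to 13 higher and 0 to 17 lower. Without wt 3 there were 30, without het 1 7, without hom 5 8, without wt 4 9, and without wt 5, wt 6 or hom 6 11. Lower genes numbered 17 without wt 3, 14 without het 5, 4 without het 3 or het 6, 3 without wt 6 or hom 6, 1 without wt 5, and 0 without wt 4, het 1 or hom 5. The cause was not tested. Mast cell genes called in hom against wt ran from 0 to 1, and in the other genotype contrasts 0.

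Tumours of the same mouse number showed no consistent likeness. Of 12 same-number pairs 5 correlated over 0.1, with a range of -0.383 to 0.5, and 3 of 15 tumours correlated best with their own number. Whether a number stands for anything shared was not tested. With the replicate block there were 8 genes, 7 higher and 1 lower.

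Of 92 named genes, 11 of 2297 values changed sign, none of them in a called gene. Fabp4 was at 0.008 with a genotype term, 0.149 without hom 6 and 0.055 without the hom tumours, and Slc6a4 at 0.621, 0.172 and 0.477. Leaving out 1 tumour gave -0.968 to 0.149 for Fabp4, -1.783 to 0.172 for Slc6a4, -0.02 to 0.336 for Srgn, and -0.115 to 0.447 for Ltc4s. Srgn was at -0.034 with the block and -0.02 without het 3. Ltc4s was at -0.434 with the block, -0.012 without wt 6 and -0.115 without het 3. The median half-width of the 95% interval was 0.341 on the log2 scale where mean log2 CPM exceeded 3. Levels under 1 RPKM rest on few reads.

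Of the list medians given above, those that changed sign or moved by over 1.5 times ran, over the 25 alternatives, from -0.176 to 0.027 for growth and homing factors, -0.03 to 0.377 for tuft cells, -0.046 to 0.625 for smooth muscle, 0.062 to 0.677 for Paneth cells, -0.496 to 0.018 for goblet cells, 0.105 to 0.419 for eosinophils, -1.532 to -0.186 for colonic surface enterocytes, -1.364 to -0.43 for enteroendocrine cells, -1.827 to -0.401 for lymphocytes, -1.263 to -0.633 for macrophages, -1.907 to -1.075 for MHC class II, -1.323 to -0.531 for interferon genes, -0.219 to -0.019 for stem cell genes, -0.371 to -0.051 for mediator handling, -0.659 to -0.241 for protease receptors and inhibitors, -0.729 to -0.038 for endothelium, 0.085 to 0.36 for oxidative phosphorylation and 0.469 to 0.88 for mitosis.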

Other observations

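The tumours left out of the ranking gave these values. In wt 2, Cma1 stood at 220.5 RPKM, Mcpt8 at 24.3, Slc18a2 at 1.62, Tph1 at 12.35, Alox5 at 10.5 and Kit at 9.67 RPKM. In the small intestinal tumour het 4 the same genes stood at 43.5, 1.92, 0.363, 3.03, 2.52 and 3.96 RPKM. In wt 1 they stood at 1.69, 0.289, 0.0797, 1.20, 0.622 and 5.38 RPKM. The ratio of Mcpt1 to Mcpt2 was 1.62 in wt 2, 1.48 in het 4 and 0.628 in wt 1. Il13 had 15, 7 and 0 counts, and Il9 had 3, 7 and 0 counts, in wt 2, het 4 and wt 1. The granzyme gene Gzmb stood at 39.97, 8.89 and 8.99 RPKM in wt 2, het 4 and wt 1.

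Over the 15 ranked tumours, Csf2rb2, a beta chain of the mouse receptor for interleukin 3, and the phosphatase gene Ppef1 were among the 16 genes that passed with the score as a continuous term (edgeR adjusted p = 0.00293 for Csf2rb2 and 0.00129 for Ppef1), and they were named after their values were seen. Csf2rb2 had 0.709 to 3.998 RPKM in rich and 0.380 to 0.657 RPKM in poor tumours. Its log2 fold change between the sets was 1.98, and it did not pass there (edgeR adjusted p = 0.128).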
